A study of Mus musculus with 14 samples.

Results

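Follicular B cells without RelB and without c-Rel (dbko, relb-/-crel-/-) were compared with follicular B cells lacking c-Rel alone (cko, crel-/-) after 6h with BAFF, across every gene with enough reads. The 2 dbko and 2 cko libraries labelled 6h were taken, 4 of the 14 libraries in the series. Both genotypes lack c-Rel, so the comparison is of the added loss of RelB in cells that already lack c-Rel. The libraries hold RNA of primary cells, isolated from the spleen of C57BL/6 mice with a magnetic bead kit that separates follicular from marginal zone B cells, and cultured in RPMI medium with 50 ng/ml of BAFF. The design also has dbko and cko at 0h and wild type cells (wt) at 0h, 6h and 27h, with 2 libraries in each of the 7 groups, and its question is the joint role of both subunits when B cells develop and survive. The labels give neither the age nor the sex of the mice, nor whether animals were pooled, and do not say whether each deletion was made in all cells of the animal. Whether the libraries within a group stem from different mice is not stated, so the p-values reflect no more than library-to-library spread, which may be technical.

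NF-kB transcription factors are dimers drawn from a small family of subunits. BAFF, a cytokine of the TNF family that keeps mature B cells alive, binds its receptor BAFF-R and acts mainly through the noncanonical branch: the kinase NIK, otherwise kept low by a complex of TRAF2, TRAF3 and the cIAP proteins, accumulates, the precursor p100 (Nfkb2) is cut to p52, and p52 enters the nucleus with RelB. c-Rel is best known from the canonical branch, where it drives growth and survival after stimulation of the B cell receptor or CD40.

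Levels are CPM, read counts scaled to a TMM-adjusted library total, always of replicate 1 and then replicate 2, and are not corrected for gene length. Differences are log2 fold changes of dbko over cko ± SE from 1 edgeR quasi-likelihood model of all 14 libraries, and calls were made where the adjusted p was below 0.05 (Benjamini-Hochberg over 12630 genes, n = 2 libraries per group). Gene counts summed to 11156397 and 11859709 in the dbko libraries and to 11014296 and 11888765 in the cko libraries. All first replicates shared 1 sequencing lane and all second replicates another, so each lane holds 1 library of every group. The dbko replicates were unlike each other. The correlation of log2 CPM across genes was 0.973 between them, below the 0.984 and 0.980 between dbko replicate 2 and the cko libraries of replicate 2 and 1, and against 0.992 between the cko libraries. dbko replicate 1 stood farther from cko, at 0.951 to each cko library. The model shares 1 estimate of each gene's spread over all 7 groups, but their replicates were not equally close. A chi-square between replicates, as a mean per gene, was 35.54 in dbko and 22 in cko at 6h, and 30.92 in dbko at 0h. It was 3.92 in cko at 0h and 4.76, 3.06 and 2.84 in wt at 6h, 0h and 27h. SE and adjusted p thus draw on groups with closer replicates, and may be too small for the groups compared. Of the calls described below, 87% of the higher and 72.5% of the lower genes had dbko replicate 1 farther from cko than replicate 2. Most counts of list members are therefore followed by their leave-out counts, for 1 direction of a list or for both. In these 1 library was left out each time, in the order dbko replicate 1, dbko replicate 2, cko replicate 1 and cko replicate 2. The group left with 1 library then adds nothing to the estimate of spread, which comes from the other groups. The B cell genes Cd79a (801 and 1012 CPM in dbko, 839 and 1015 in cko) and Cd79b (1614 and 1853 CPM in dbko, 1561 and 1874 in cko) were high in every library, and Cd3e of T cells and Ncr1 of NK cells had too few reads to be tested.

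Relb and Rel, the genes of the targeted subunits, were both lower in dbko. Relb had 67.8 and 88.4 CPM in dbko, against 159 and 172 CPM in cko and 150 and 164 CPM in wt at 6h. Both dbko libraries lay under all others, but reads from the gene were not lost (-1.08 ± 0.14, adjusted p = 6.47e-04). The counts are summed over the gene and do not show which exons the remaining reads cover. Rel had 53.9 and 61.4 CPM in dbko, against 111 and 95.3 CPM in cko and 672 and 683 CPM in wt (-0.84 ± 0.14, adjusted p = 0.00232). Both knockouts were thus far below wt in Rel reads, and the dbko libraries lay below the cko libraries without overlap.

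In all, 1108 genes were higher and 589 lower in dbko than in cko, 8.77% and 4.66% of the genes tested and 13.4% together. All counts of list members below are to be read beside these shares. The median log2 fold change over all genes tested was -0.005. Of the called genes, 816 were higher and 138 lower by at least 2-fold. In all 1697 the groups did not overlap, which was also so for 46.2% of all genes tested. Counts of higher and lower genes were 472 and 261 without dbko replicate 1, 1819 and 1200 without dbko replicate 2, 321 and 238 without cko replicate 1, and 473 and 397 without cko replicate 2. With each of the 4 left out in turn, 237 higher and 136 lower genes stayed called every time, and these are called robust below. The word covers leaving out a library and no other setting: with only the 4 libraries compared in the model, 142 genes were higher and 48 lower, and 44 of the 78 robust named genes kept their call under every alternative tried. In that smaller model 1 of the G2 and mitosis genes, 12 erythroid, 6 macrophage and 4 B-1 genes were higher, and none of the B cell receptor signalling genes or of the BAFF and TNF family. Since the cells were measured in bulk, fewer cells of a type and less RNA per cell cannot be told apart.

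Genes of the NF-kB pathway fell in part, and most of those falls were robust. Relb, itself a knockout target, is among the falls counted in both lists below. That fall belongs to the design, and Rel, the other target, is a subunit gene too. Among all genes tested 4.66% were lower and 8.77% higher. Of 28 tested subunits, inhibitors and kinases 7 fell, 6 of them robust, and 1 rose, with leave-out counts of the falls of 8, 12, 6 and 7. Of 12 tested genes of the noncanonical branch 5 fell, 4 of them robust, and 3 rose, 2 of them robust. Promoters of 3 fallen genes that hold the kB consensus, the DNA motif bound by NF-kB dimers, are shown because Nfkb2 and Ltb are classical NF-kB targets and Pglyrp1 had one of the largest falls. Each runs from 250 bases before to 50 after the start, 5′ to 3′ on the gene's strand, from RefSeq on GRCm38.p6, with the matches in capitals.
Nfkb2, chr19:46304487-46304786, plus strand: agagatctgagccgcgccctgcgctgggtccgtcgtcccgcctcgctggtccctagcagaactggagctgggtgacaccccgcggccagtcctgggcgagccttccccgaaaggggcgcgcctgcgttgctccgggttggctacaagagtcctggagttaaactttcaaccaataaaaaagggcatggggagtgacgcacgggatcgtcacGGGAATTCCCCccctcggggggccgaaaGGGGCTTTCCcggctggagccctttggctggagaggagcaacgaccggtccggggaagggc
Ltb, chr17:35194257-35194556, plus strand: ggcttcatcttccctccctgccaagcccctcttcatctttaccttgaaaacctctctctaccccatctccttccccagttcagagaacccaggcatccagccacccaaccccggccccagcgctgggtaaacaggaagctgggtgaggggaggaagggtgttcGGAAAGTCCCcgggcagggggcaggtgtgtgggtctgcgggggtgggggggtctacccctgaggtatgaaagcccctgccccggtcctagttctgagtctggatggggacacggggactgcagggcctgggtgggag
Pglyrp1, chr7:18884440-18884739, plus strand: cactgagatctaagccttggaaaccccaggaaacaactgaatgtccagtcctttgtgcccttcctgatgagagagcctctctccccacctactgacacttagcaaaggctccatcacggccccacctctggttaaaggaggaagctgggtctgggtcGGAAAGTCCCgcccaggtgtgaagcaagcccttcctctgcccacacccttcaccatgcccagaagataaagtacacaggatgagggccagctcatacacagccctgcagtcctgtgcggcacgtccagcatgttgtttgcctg
The consensus was searched on both strands and was present in 4.51% of the 32851 promoters of the table. In the Nfkb2 promoter shown, overlapping matches begin at -39 and -38 from the start and a further one at -11, in Ltb a match on the minus strand begins at -87, and in Pglyrp1 one on the minus strand begins at -93. The promoter of Rel, also a called fall, held 2 matches. Those of Traf1, Birc3, Traf2, Apoe, Il9r, P2ry10, Pou2af1, Chst10, Icosl and Zbtb46 held none, and Relb, Cd86 and Itgb3 were not matched to the table. A match is a description of the sequence and not a measured binding site.

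Among the subunits and their partners, Nfkb2, which encodes p100, fell together with the adaptor Traf1. Nfkb2 had 153 and 233 CPM in dbko, against 523 and 489 CPM in cko and 547 and 533 CPM in wt (-1.39 ± 0.16, adjusted p = 3.23e-04). Traf1, an adaptor of TNF receptors and a known NF-kB target, had 40.9 and 54.6 CPM in dbko, against 160 and 153 CPM in cko and 242 and 250 CPM in wt (-1.72 ± 0.13, adjusted p = 1.27e-05). For both genes the dbko libraries lay under every cko and wt library. Birc3, which encodes the ubiquitin ligase cIAP2, had 176 and 216 CPM in dbko, against 430 and 400 CPM in cko (-1.08 ± 0.13, adjusted p = 4.53e-04). Traf2, part of the complex that keeps NIK low, had 69.5 and 80 CPM in dbko, against 127 and 120 CPM in cko (-0.72 ± 0.1, adjusted p = 0.00117). Birc2, the gene of cIAP1 in that complex, was also lower (-0.63 ± 0.13, adjusted p = 0.00872), but missed the threshold without cko replicate 1 (adjusted p = 0.0694). The NIK gene Map3k14 (89.6 and 93 CPM in dbko, 82.3 and 91.1 CPM in cko, adjusted p = 0.814), Nfkb1 (481 and 677 CPM in dbko, 540 and 545 CPM in cko, adjusted p = 0.74) and Rela (125 and 198 CPM in dbko, 180 and 186 CPM in cko, adjusted p = 0.549) were not called.

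The receptors for BAFF moved the other way. Tnfrsf13b, which encodes TACI, had 263 and 209 CPM in dbko, against 108 and 129 CPM in cko and 117 and 115 CPM in wt (1 ± 0.13, adjusted p = 7.5e-04). Tnfrsf13c, the gene of BAFF-R itself, had 257 and 254 CPM in dbko, against 150 and 174 CPM in cko (0.66 ± 0.12, adjusted p = 0.00373). Its wt libraries, at 260 and 291 CPM, lay by the dbko and not the cko libraries. Ltb, the lymphotoxin subunit with which B cells signal to the stroma of lymphoid organs, had 92.7 and 140 CPM in dbko, against 253 and 347 CPM in cko and 211 and 222 CPM in wt (-1.37 ± 0.22, adjusted p = 0.00274). Among the 20 tested BAFF and TNF family receptors and ligands, 6 rose, 2 of them robust, and 4 fell, 1 of them robust, with leave-out counts of 5, 6, 2 and 6 for the rises and 1, 5, 1 and 2 for the falls.

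**Figure D1:**
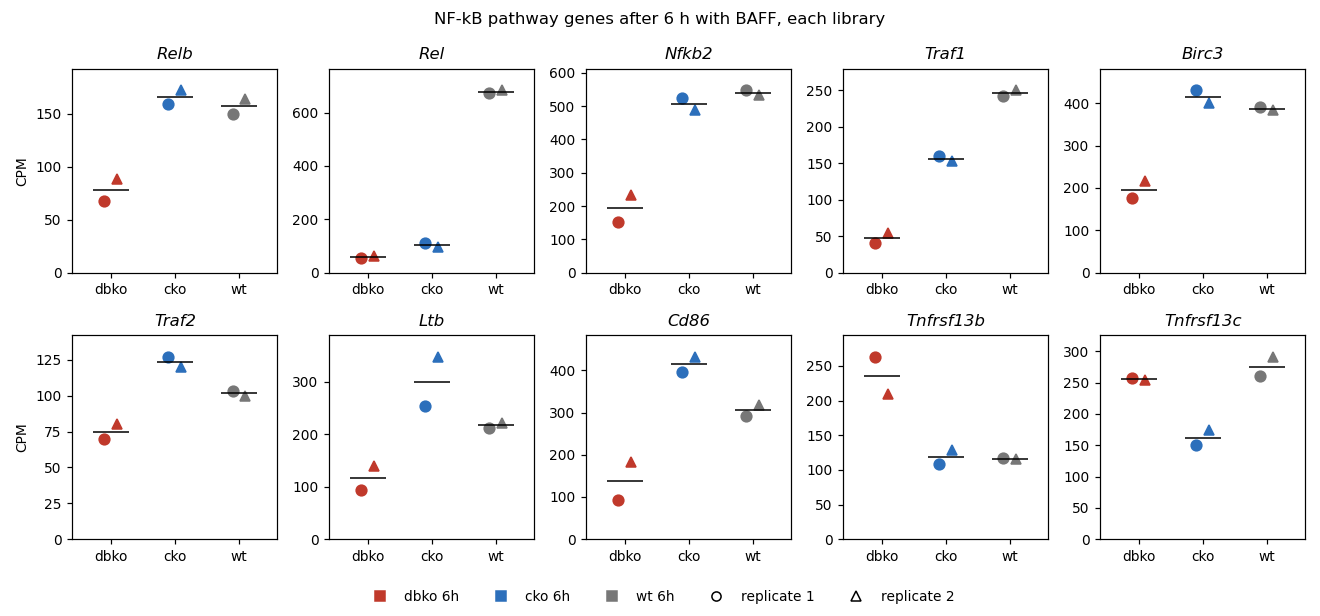
CPM of 10 NF-kB pathway genes at 6h in each library, for dbko, cko and wt; circles are replicate 1, triangles replicate 2 and bars the mean of both. In Nfkb2, Traf1, Birc3, Traf2, Ltb and Cd86 both dbko libraries lie under the cko libraries, and in Tnfrsf13b and Tnfrsf13c above them.

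Of 41 tested genes known as NF-kB targets, 4 fell and 4 rose, beside 4.66% and 8.77% of all genes tested. Leave-out counts were 3, 12, 3 and 3 for the falls and 4, 4, 1 and 2 for the rises, and the falls were 8 with DESeq2 and 8 with the replicate block, a term for the sequencing lane. The median log2 fold change of the list was -0.17. Besides Traf1 and Ltb, the robust fall on this list was in Cd86, the co-stimulatory ligand that B cells show to T cells, with 91.8 and 182 CPM in dbko, against 396 and 432 CPM in cko and 293 and 319 CPM in wt (-1.6 ± 0.24, adjusted p = 0.002). The targets Nfkbia (119 and 207 CPM in dbko, 226 and 286 CPM in cko, adjusted p = 0.0546), Tnfaip3 (97.6 and 158 CPM in dbko, 156 and 149 CPM in cko, adjusted p = 0.605) and Icam1 (50.6 and 61.4 CPM in dbko, 60.9 and 53.5 CPM in cko, adjusted p = 0.923) were not called. Among 14 tested pro-survival genes 2 fell, 1 of them robust, and 2 rose, none robust, with leave-out counts of 2, 5, 1 and 2 for the falls and 1, 2, 0 and 1 for the rises. Among 17 tested pro-apoptotic genes 1 fell, a share near the 4.66% of all genes, with leave-out counts of 0, 5, 0 and 0. Bcl2l1, which encodes the survival factor BCL-XL, had 14.2 and 10.9 CPM in dbko, against 5.28 and 7.36 CPM in cko and 62.8 and 72.4 CPM in wt (0.99 ± 0.18, adjusted p = 0.0047). Both knockouts lay far under wt, and the call ended without cko replicate 1 (adjusted p = 0.0512). Bcl2 (51.8 and 42 CPM in dbko, 58 and 60.6 CPM in cko, adjusted p = 0.283), Mcl1 (726 and 734 CPM in dbko, 738 and 773 CPM in cko, adjusted p = 0.825) and the death gene Bcl2l11, which encodes BIM (299 and 522 CPM in dbko, 623 and 611 CPM in cko, adjusted p = 0.0663), were not called.

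Where average log2 CPM was 3 or more, the largest falls included receptors, a lipid carrier and an integrin. Il9r, which encodes a chain of the interleukin-9 receptor, had 3.88 and 11.4 CPM in dbko, against 588 and 464 CPM in cko and 326 and 278 CPM in wt (-6.1 ± 0.5, adjusted p = 1.11e-04). Apoe, the lipid carrier apolipoprotein E, had 13.7 and 18.3 CPM in dbko, against 267 and 360 CPM in cko and 170 and 171 CPM in wt (-4.29 ± 0.19, adjusted p = 7.58e-08). In both genes wt lay on the side of cko, and the dbko libraries stood apart from every other library at 6h. Pglyrp1, a secreted protein that binds bacterial peptidoglycan, had 1.05 and 0.703 CPM in dbko, against 14.7 and 23 CPM in cko (-4.41 ± 0.29, adjusted p = 4.53e-06). Itgb3, the integrin beta-3 chain, had 30.9 and 93.9 CPM in dbko, against 549 and 506 CPM in cko and 260 and 282 CPM in wt (-3.08 ± 0.38, adjusted p = 0.00117). Chst10, a sulfotransferase that acts on glycans, had dbko replicates close to each other, with 36 and 33.6 CPM in dbko, against 219 and 231 CPM in cko and 248 and 236 CPM in wt (-2.69 ± 0.12, adjusted p = 7.58e-08). P2ry10, a receptor for lysophospholipids on lymphocytes, had 90.9 and 132 CPM in dbko, against 587 and 789 CPM in cko and 378 and 402 CPM in wt (-2.62 ± 0.27, adjusted p = 2.15e-04). Falls in Rhbdf1, Gad1, Ildr1, Zbtb46, Snrnp25 and Rnf125 were also robust. Those in Adm, Msrb3 and Grasp missed the threshold without either cko library (adjusted p = 0.0657, 0.0848 and 0.0698 without replicate 1, and 0.0773, 0.0745 and 0.0706 without replicate 2).

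**Figure D2:**
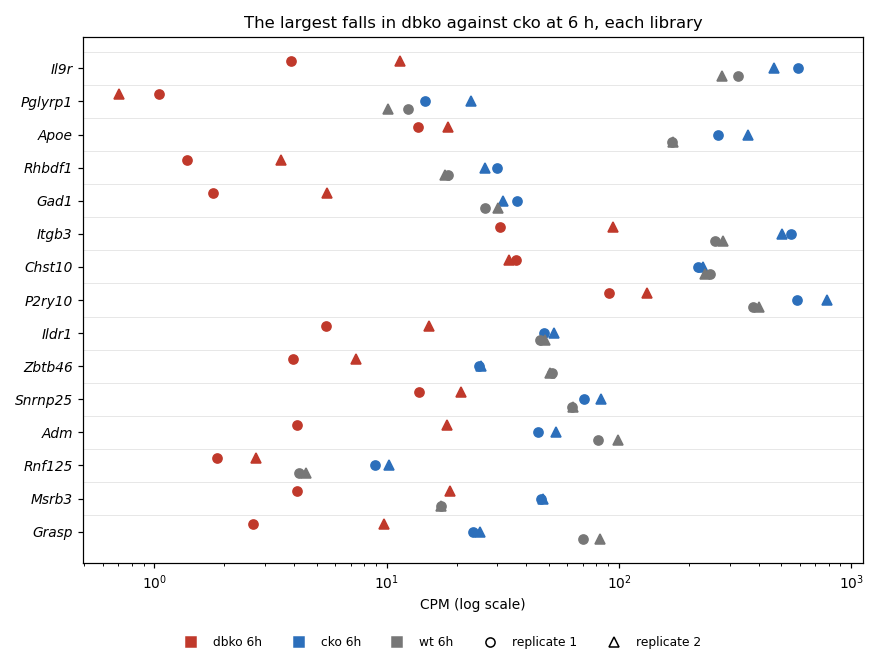
CPM, on a log axis, of the 15 genes with the largest called falls in dbko against cko at 6h, taken where average log2 CPM was 3 or more; red is dbko, blue cko and grey wt, circles replicate 1 and triangles replicate 2. Every red point lies left of both blue points of its gene, from 3.88 and 11.4 CPM in dbko against 588 and 464 CPM in cko for Il9r down to 2.67 and 9.77 CPM in dbko against 23.6 and 25.3 CPM in cko for Grasp.

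Several of the fallen genes lie close to each other. Apoe lies 0.08 Mb from Relb on chromosome 7 (GRCm38), Pglyrp1 0.74 Mb from it, and Slc1a5, a glutamine transporter, 2.83 Mb from it. Slc1a5 had 92.7 and 95.4 CPM in dbko, against 336 and 247 CPM in cko (-1.63 ± 0.15, adjusted p = 6.12e-05). Within 5 Mb on each side of Relb 80 other genes were tested, of which 11 rose, 4 of them robust, and 7 fell, 3 of them robust. Their share called was 22.5%, beside 13.4% of all genes tested. Within 5 Mb of Rel on chromosome 11, 2 of 35 rose and 2 fell, none robust, a share of 11.4%, below that of all genes. Il9r lies elsewhere on chromosome 11, 8.44 Mb from Rel. Of the 5 genes tested within 0.1 Mb of Il9r, 3 fell: Rhbdf1, a rhomboid-like protein (1.38 and 3.52 CPM in dbko, 29.8 and 26.4 CPM in cko, -3.51 ± 0.35, adjusted p = 1.25e-04), Snrnp25, a protein of the minor spliceosome (13.8 and 20.9 CPM in dbko, 71 and 83.4 CPM in cko, -2.15 ± 0.19, adjusted p = 3.54e-05), and the DNA glycosylase gene Mpg (-0.73, adjusted p = 0.00441). The alpha globin gene Hba-a1 in the same window was higher, with 15.5 and 10.1 CPM in dbko, against 0.44 and 0.572 CPM in cko (4.62 ± 0.52, adjusted p = 4.87e-04). The part of position in these differences was not tested.

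Most tested genes of mature follicular B cells, 16 of 20, were not called, and a few fell. The median log2 fold change of this list was -0.11. Among all genes tested 4.66% were lower and 8.77% higher. Of 20 tested follicular markers 3 fell, 2 of them robust, and 1 rose, with leave-out counts of the falls of 2, 5, 2 and 3. Pou2af1, which encodes the B cell co-activator OBF-1, had 529 and 610 CPM in dbko, against 1823 and 2062 CPM in cko and 1207 and 1193 CPM in wt (-1.77 ± 0.12, adjusted p = 4.53e-06). The dbko libraries lay close together and under all others. Fcer2a, the low-affinity IgE receptor CD23, was also lower (167 and 168 CPM in dbko, 296 and 277 CPM in cko, -0.78 ± 0.17, adjusted p = 0.0103), but missed the threshold without dbko replicate 1 (adjusted p = 0.0504) and without cko replicate 1 (adjusted p = 0.0653). Ms4a1, which encodes CD20, was higher (1785 and 1046 CPM in dbko, 720 and 838 CPM in cko, 0.86 ± 0.2, adjusted p = 0.0152), and missed it without dbko replicate 1 (adjusted p = 0.133) and without cko replicate 1 (adjusted p = 0.108). The identity factors Pax5 (143 and 162 CPM in dbko, 139 and 142 CPM in cko, adjusted p = 0.565) and Ebf1 (219 and 285 CPM in dbko, 296 and 311 CPM in cko, adjusted p = 0.246) were not called.

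Many markers of B-1 cells, the self-renewing B cells of body cavities, were higher. Of 23 tested B-1 markers 14 rose and none fell, and 6 were robust: Tbc1d9, Dusp10, Fcrl5, Zbtb32, Plscr1 and Ccr1. With dbko replicate 1, dbko replicate 2, cko replicate 1 or cko replicate 2 left out, 8, 15, 6 and 8 of them were higher. Tbc1d9, a Rab GTPase-activating protein, had 39.5 and 24.9 CPM in dbko, against 6.86 and 7.11 CPM in cko (2.2 ± 0.2, adjusted p = 6.05e-05). Zbtb32, a transcriptional repressor of the plasma cell programme, had 33 and 28 CPM in dbko, against 4.4 and 5.72 CPM in cko (2.59 ± 0.37, adjusted p = 0.00137). Dusp10, a phosphatase of stress kinases, had 53.2 and 41.4 CPM in dbko, against 17.3 and 16.7 CPM in cko (1.48 ± 0.14, adjusted p = 6.29e-05). All of these stood apart from cko in both dbko libraries. Cd5, the classical B-1a surface marker, stayed low in all libraries, at 4.21 and 6.64 CPM in dbko and 2.11 and 2.21 CPM in cko (1.33 ± 0.36, adjusted p = 0.0283), and missed the threshold with any library but dbko replicate 1 left out (adjusted p = 0.0949 without dbko replicate 2, 0.129 without cko replicate 1 and 0.108 without cko replicate 2). The B-1 list also holds genes of myeloid cells, such as Itgam, Anxa2 and Lgals1.

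Of 19 tested marginal zone markers 6 rose, 2 of them robust, 1 fell and 12 were not called, with leave-out counts of the rises of 5, 6, 2 and 3. S1pr3, a receptor for sphingosine 1-phosphate that holds marginal zone B cells in place, had 100 and 87.9 CPM in dbko, against 26.3 and 27.6 CPM in cko and 32.4 and 31.4 CPM in wt (1.8 ± 0.16, adjusted p = 5.75e-05). Fcrl5, an inhibitory receptor of innate-like B cells, had 74.2 and 101 CPM in dbko, against 27.4 and 30.6 CPM in cko (1.59 ± 0.2, adjusted p = 5.22e-04). Cr2, the complement receptor that is high on marginal zone cells, was not called and had 121 and 144 CPM in dbko, against 237 and 194 CPM in cko (adjusted p = 0.332). Cd9 was higher at 60.2 and 124 CPM in dbko, against 43.2 and 52.5 CPM in cko (adjusted p = 0.0323), but missed the threshold without dbko replicate 2, cko replicate 1 or cko replicate 2 (highest adjusted p = 0.189).

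Age-associated and memory B cell markers were mixed, with 9 of 17 tested higher, 5 of them robust, and 2 lower, both robust, and with leave-out counts of the higher ones of 5, 10, 5 and 6. Itgax, the integrin CD11c, had 15.1 and 6.96 CPM in dbko, against 1.93 and 2.53 CPM in cko (2.29 ± 0.34, adjusted p = 0.00139). Zeb2, a repressor active in these cells, had 143 and 90 CPM in dbko, against 61.5 and 54.5 CPM in cko (1.01 ± 0.18, adjusted p = 0.00473). The lower ones were Apoe and Nt5e, the ectoenzyme CD73 of memory cells, with 1.62 and 0.469 CPM in dbko, against 8.26 and 8.17 CPM in cko (-2.97 ± 0.49, adjusted p = 0.00267). Among 16 tested plasma cell markers 6 rose, 3 of them robust, and 1 fell, with leave-out counts of the rises of 7, 5, 3 and 3. Tent5c, a poly(A) polymerase that stabilises immunoglobulin messages, had 125 and 128 CPM in dbko, against 32.4 and 36.4 CPM in cko and 68.5 and 66.3 CPM in wt (1.88 ± 0.12, adjusted p = 4.53e-06). Xbp1, the factor that expands the secretory pathway, had 146 and 173 CPM in dbko, against 101 and 103 CPM in cko (0.64 ± 0.11, adjusted p = 0.00257). Jchain, the joining chain of secreted IgM and IgA, had 23.5 and 166 CPM in dbko, against 5.36 and 4.66 CPM in cko, with the dbko replicates far from each other, and missed the threshold without either cko library (adjusted p = 0.117 without replicate 1 and 0.111 without replicate 2). Prdm1, the master gene of plasma cells, had 34 and 65.7 CPM in dbko, against 63.7 and 57.2 CPM in cko (adjusted p = 0.497). None of the 8 tested immunoglobulin constant genes was called by edgeR with all 14 libraries, the filter on low counts and no block, where 2 had an unadjusted p under 0.05. DESeq2 called 1, and edgeR called 1 with the replicate block, 1 without dbko replicate 2 and 3 with no filter on low counts, all higher.

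Among the largest rises were many genes of red cell precursors and macrophages. Of 24 tested erythroid markers 22 rose, 11 of them robust, and of 25 tested monocyte and macrophage markers 22 rose, 9 of them robust. With dbko replicate 1, dbko replicate 2, cko replicate 1 or cko replicate 2 left out, the erythroid count was 15, 22, 13 and 14, and the macrophage count 17, 22, 9 and 12. The beta globin gene Hbb-bs had 130 and 44.1 CPM in dbko, against 1.93 and 3.11 CPM in cko (5.09 ± 0.71, adjusted p = 0.00244). Slc4a1, the anion exchanger band 3 of the red cell membrane, had 32.9 and 14.9 CPM in dbko, against 0.615 and 0.817 CPM in cko (5.03 ± 0.6, adjusted p = 9.12e-04). Alas2, the first enzyme of red cell heme synthesis, had 15.9 and 5.86 CPM in dbko, and 1 read in cko replicate 1 and 0 in cko replicate 2. The globin genes have near copies, so the split of reads between them is uncertain.

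Among the macrophage genes, Slc40a1, the iron exporter ferroportin, had 76.5 and 15.3 CPM in dbko, against 0.967 and 1.55 CPM in cko and 4.85 and 4.5 CPM in wt (5.16 ± 0.76, adjusted p = 0.00271). Hmox1, which degrades heme, had 365 and 244 CPM in dbko, against 71 and 85 CPM in cko (1.96 ± 0.21, adjusted p = 2.45e-04). Spic, the factor of red pulp macrophages, had 25.9 and 9.61 CPM in dbko, against 2.02 and 2.45 CPM in cko (2.98 ± 0.39, adjusted p = 6.81e-04). Csf1r, the receptor for the macrophage growth factor CSF1, was at 32.8 and 7.58 CPM in dbko, against 0.703 and 0.817 CPM in cko, and missed the threshold without either cko library (adjusted p = 0.0722 without replicate 1 and 0.0592 without replicate 2). Mpeg1, a pore-forming protein that B cells also make, had 272 and 246 CPM in dbko, against 99.4 and 107 CPM in cko (1.33 ± 0.1, adjusted p = 9.68e-06). In each of these genes dbko replicate 1 was the higher dbko library. Among the largest rises, the calls of Car1, Tgm2, Vcam1, Lrp1, Hemgn, Aqp1, Sirpa, Ank1, Csf1r and Jchain ended with at least 1 library left out (highest adjusted p between 0.0562 and 0.117), and those of Slc40a1, Hbb-bs, Slc4a1 and Hba-a1 did not. Summed over the list, erythroid markers stood at 632 and 401 CPM in dbko, against 292 and 282 CPM in cko and 431 and 483 CPM in wt. Such a sum follows the most abundant members. Hbb-bs, Slc4a1, Hba-a1 and Alas2 made up little of the cko sums, and the median log2 fold change of the tested erythroid members was 4.01. The macrophage list summed to 1113 and 640 CPM in dbko, against 209 and 231 CPM in cko and 215 and 194 CPM in wt, with Cx3cr1 at 0 in dbko and cko. Of the neutrophil list, Elane, Camp and Ltf were at 0 in dbko and cko. Of the mast cell, basophil and platelet list, Cpa3, Fcer1a, Ms4a2 and Mcpt8 were at 0 there. The part of other cells in the remaining differences was not tested.

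Cell cycle genes were higher in dbko, but no rise among the G2 and mitosis or S phase genes was robust. Of 30 tested genes of G2 and mitosis 28 rose and none fell, with no robust call: 2 were called without dbko replicate 1, 30 without dbko replicate 2, 0 without cko replicate 1 and 2 without cko replicate 2. The proliferation marker Mki67 had 574 and 109 CPM in dbko, against 36.7 and 28.5 CPM in cko (3.39 ± 0.76, adjusted p = 0.0225), and missed the threshold without dbko replicate 1 (adjusted p = 0.0796), cko replicate 1 (adjusted p = 0.114) or cko replicate 2 (adjusted p = 0.12). The mitotic kinase Plk1 had 31.3 and 11.9 CPM in dbko, against 2.9 and 4.25 CPM in cko (2.59 ± 0.5, adjusted p = 0.00783), and missed it without cko replicate 1 (adjusted p = 0.0848). Both dbko libraries lay above both cko libraries in these genes, with replicate 1 far above replicate 2. The list summed to 3021 and 733 CPM in dbko, against 314 and 299 CPM in cko and 403 and 389 CPM in wt. Of 41 tested genes of S phase and DNA replication 12 rose and none fell, and 1, 28, 0 and 2 were higher without dbko replicate 1, dbko replicate 2, cko replicate 1 and cko replicate 2. Cdkn1b, the cyclin-dependent kinase inhibitor p27 of resting lymphocytes, was a robust fall, with 161 and 161 CPM in dbko, against 252 and 263 CPM in cko (-0.68 ± 0.12, adjusted p = 0.00373). None of 40 genes of MYC action and ribosome biogenesis was called by edgeR or DESeq2 with all libraries, with 0 at an unadjusted p under 0.05 in edgeR, and 11 were lower without dbko replicate 2.

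**Figure D3:**
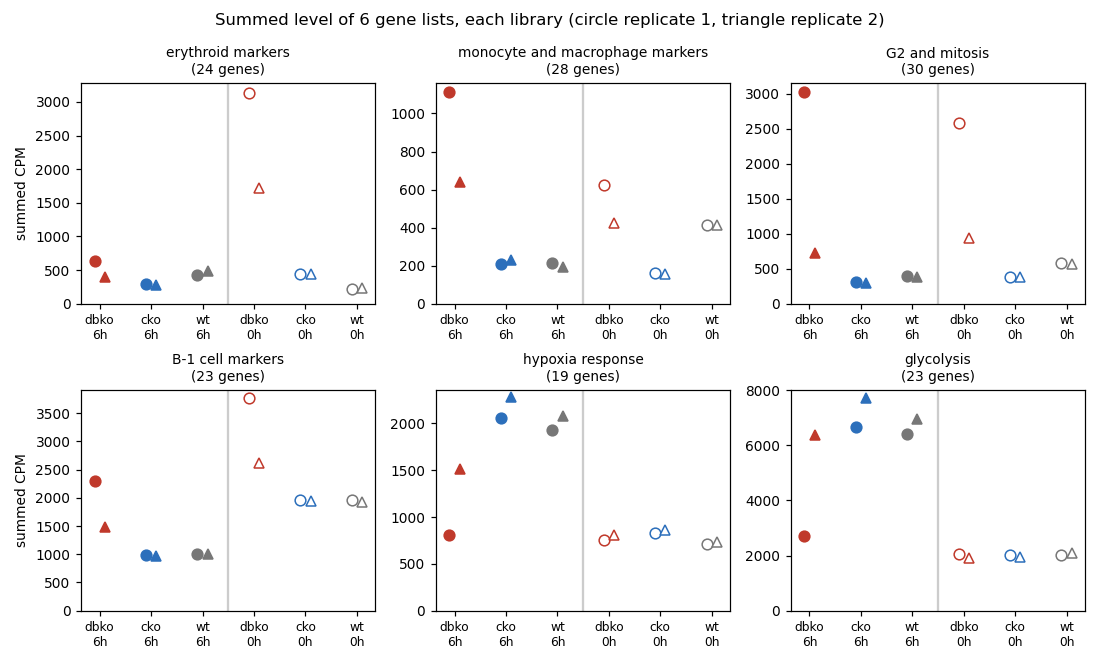
Summed CPM of 6 gene lists in each library at 6h (filled) and 0h (open); red is dbko, blue cko and grey wt, circles replicate 1 and triangles replicate 2. At 6h G2 and mitosis genes sum to 3021 and 733 CPM in dbko against 314 and 299 CPM in cko, and hypoxia genes to 807 and 1518 CPM in dbko against 2060 and 2281 CPM in cko.

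Genes of glycolysis and of the response to low oxygen fell in part. Of 18 tested hypoxia genes 8 fell and none rose, 3 of them robust, and of 22 tested glycolysis genes 6 fell and none rose, 1 of them robust. Without dbko replicate 1, dbko replicate 2, cko replicate 1 and cko replicate 2 the hypoxia count was 9, 15, 3 and 3, and the glycolysis count 4, 19, 1 and 3. In the model of only the 4 libraries compared, 0 hypoxia and 1 glycolysis genes were called. Slc2a3, the glucose transporter GLUT3, had 22.6 and 35.3 CPM in dbko, against 83.4 and 70.8 CPM in cko (-1.41 ± 0.2, adjusted p = 0.00114). Ero1l, an oxidase of the endoplasmic reticulum induced by low oxygen, had 34.1 and 75.1 CPM in dbko, against 153 and 169 CPM in cko (-1.55 ± 0.27, adjusted p = 0.00458). Mxi1, a MYC antagonist, had 17.7 and 39.1 CPM in dbko, against 75.7 and 84.3 CPM in cko (-1.49 ± 0.25, adjusted p = 0.0037). In each of these dbko replicate 1 was the lower dbko library. Ldha, which makes lactate, had 374 and 900 CPM in dbko, against 808 and 1051 CPM in cko, so that the groups overlapped (adjusted p = 0.298). Of 30 tested genes of cholesterol and fatty acid synthesis 9 rose, none of them robust, and the desaturase gene Scd1 was a robust fall (774 and 769 CPM in dbko, 1135 and 1220 CPM in cko, -0.61 ± 0.12, adjusted p = 0.00589). The 9 became 1, 20, 0 and 2 without dbko replicate 1, dbko replicate 2, cko replicate 1 and cko replicate 2. None of 40 genes of oxidative phosphorylation was called by edgeR with all 14 libraries or by DESeq2, with 0 at an unadjusted p under 0.05 in edgeR.

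Receptors for cytokines and chemokines changed in both directions, beside 8.77% higher and 4.66% lower among all genes tested. For cytokine receptors the share of rises was near that 8.77%, and the median log2 fold change was 0.02. Of 27 tested cytokine receptors 5 fell, 2 of them robust, and 3 rose, 1 of them robust, with leave-out counts of 3, 8, 3 and 4 for the falls and 3, 3, 1 and 3 for the rises. Besides Il9r, the robust fall was in Ifngr1, the ligand-binding chain of the interferon-gamma receptor, with 75.9 and 88.1 CPM in dbko, against 165 and 186 CPM in cko and 115 and 121 CPM in wt (-1.1 ± 0.1, adjusted p = 6.29e-05). Csf2rb, the beta chain shared by the receptors for IL-3, IL-5 and GM-CSF, had 251 and 223 CPM in dbko, against 79.5 and 79.3 CPM in cko and 73.7 and 71.8 CPM in wt (1.58 ± 0.19, adjusted p = 4.49e-04). Of 20 tested chemokines and chemokine receptors 6 rose, 4 of them robust, and 2 fell, 1 of them robust. The leave-out counts were 2, 7, 1 and 1 for the falls, which numbered 4 with the replicate block. Ccr9, the gut homing receptor, had 91.3 and 79.4 CPM in dbko, against 30.8 and 36.2 CPM in cko (1.35 ± 0.16, adjusted p = 3.23e-04). Ackr3, a scavenger of CXCL12, had 0.324 and 0.938 CPM in dbko, against 3.17 and 5.39 CPM in cko (-2.74 ± 0.41, adjusted p = 0.0015). Cxcr5, which leads B cells to follicles (257 and 477 CPM in dbko, 436 and 504 CPM in cko, adjusted p = 0.394), and Ccr7, which leads them to T cells (483 and 970 CPM in dbko, 1201 and 1475 CPM in cko, adjusted p = 0.0517), were not called.

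For contact with T cells, 5 of 23 tested co-stimulation and activation genes fell, 2 of them robust, and 4 rose, 1 of them robust, with leave-out counts of 3, 8, 2 and 3 for the falls and 2, 3, 1 and 4 for the rises. Icosl, the ligand for ICOS, had 93 and 77.2 CPM in dbko, against 273 and 229 CPM in cko (-1.56 ± 0.3, adjusted p = 0.00749), and missed the threshold without cko replicate 1 (adjusted p = 0.0639). Entpd1, the ectoenzyme CD39, had 32.6 and 22.4 CPM in dbko, against 10.8 and 11.9 CPM in cko (1.27 ± 0.2, adjusted p = 0.00179). Of 16 tested genes of MHC class II presentation 2 fell, neither robust, with leave-out counts of 8, 1, 2 and 0, and the class II gene H2-Ab1 was not called (1461 and 1040 CPM in dbko, 1344 and 1873 CPM in cko, adjusted p = 0.251). Of 30 tested genes of B cell receptor signalling 10 rose, 3 of them robust, and 2 fell, 1 of them robust, and 6, 8, 4 and 4 rose without dbko replicate 1, dbko replicate 2, cko replicate 1 and cko replicate 2. Among all genes tested 8.77% were higher and 4.66% lower, and the share of falls in B cell receptor signalling was near that 4.66%. The median log2 fold change of the co-stimulation list was -0.11. Rasgrp3, which activates Ras below the receptor, had 99.8 and 82.6 CPM in dbko, against 326 and 303 CPM in cko and 262 and 249 CPM in wt (-1.79 ± 0.26, adjusted p = 0.00155). Plcg2, the phospholipase below the receptor, had 511 and 469 CPM in dbko, against 333 and 311 CPM in cko (0.61 ± 0.12, adjusted p = 0.00605).

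Genes of some stress lists rose in part, beside 8.77% higher among all genes tested. Of 18 tested heat shock chaperones only 1 rose, and Hmox1 below is also on the macrophage list. Of 19 tested NRF2 and heme genes 6 rose and none fell, 3 of them robust (Hmox1, Srxn1 and Nqo1), with leave-out counts of 5, 5, 3 and 5. Nqo1, a quinone reductase, had 15.9 and 11.9 CPM in dbko, against 3.25 and 3.02 CPM in cko (2.14 ± 0.35, adjusted p = 0.00243). Of 28 tested genes of the unfolded protein and ATF4 responses 9 rose and none fell, 2 of them robust, with leave-out counts of 3, 10, 3 and 6, and Asns, which makes asparagine, had 27.8 and 19.6 CPM in dbko, against 4.57 and 5.97 CPM in cko (2.17 ± 0.34, adjusted p = 0.00223). Of 37 tested interferon-stimulated genes 5 rose, none of them robust. Their count was 1, 22, 0 and 5 without dbko replicate 1, dbko replicate 2, cko replicate 1 and cko replicate 2.

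The other lists are given by their counts, beside 8.77% higher and 4.66% lower among all genes tested. Of 24 tested genes of lymphocyte exit, homing and adhesion 6 rose, 1 of them robust, and 4 fell, 3 of them robust, with leave-out counts of the rises of 4, 6, 1 and 1. Of 26 tested B cell transcription factors 6 rose, 3 of them robust, and 2 fell, both robust, with leave-out counts of 6, 7, 3 and 5 for the rises and 2, 4, 2 and 2 for the falls. Mef2c, a factor of B cell proliferation, was among the falls (473 and 422 CPM in dbko, 737 and 772 CPM in cko, -0.75 ± 0.14, adjusted p = 0.00563). Of 13 tested transitional B cell markers 3 rose, 1 of them robust, and 1 fell, with leave-out counts of 2, 4, 2 and 2 for the rises and 1, 4, 1 and 0 for the falls. Sox4, a factor of early B cells, had 49 and 42.2 CPM in dbko, against 16.1 and 21.2 CPM in cko (1.29 ± 0.17, adjusted p = 5.7e-04). Of 13 tested germinal centre markers 2 rose and 2 fell, none robust, with leave-out counts of 0, 5, 0 and 0 for the rises and 1, 2, 0 and 2 for the falls.

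Of 12 tested dendritic cell markers 5 rose, 3 of them robust, and 1 fell, which was robust, with leave-out counts of the rises of 5, 5, 3 and 4. Of 9 tested T cell markers 2 rose, none robust, with leave-out counts of 2, 1, 0 and 1. Of 6 tested NK cell markers 2 rose, none robust, and 1 fell, which was robust, with leave-out counts of the rises of 1, 3, 0 and 0. Of 4 tested neutrophil markers 1 rose and was robust, and 3 rose without dbko replicate 2. Of 6 tested mast cell, basophil and platelet markers 3 rose and 1 fell, 1 of each robust, with leave-out counts of the rises of 1, 3, 1 and 1. Of 16 tested G1 cyclins and inhibitors 5 rose, none robust, and 1 fell, the robust Cdkn1b, with leave-out counts of the rises of 3, 7, 0 and 3. Of 12 tested genes of amino acid and iron uptake 1 rose, not robust, and 2 fell, 1 of them the robust Slc1a5, with leave-out counts of 0, 1, 0 and 0 for the rise and 1, 2, 1 and 2 for the falls. Of 13 tested Ifi200 genes, which have near copies, 2 rose, 1 of them robust, with leave-out counts of 2, 4, 1 and 2. Of 27 tested immediate early genes 3 rose, 1 of them robust, and 1 fell, with leave-out counts of 2, 4, 1 and 3 for the rises and 1, 9, 0 and 0 for the falls. Of 18 tested heat shock chaperones 1 rose, with leave-out counts of 2, 2, 0 and 1, and of 15 tested KLF and FOXO factors 1 rose, with leave-out counts of 0, 1, 0 and 1. Of 19 tested genes next to Relb 1 fell, the robust Apoe, with leave-out counts of 1, 5, 1 and 1. Of 11 tested next to Rel 2 rose and 1 fell, none robust, with leave-out counts of 0, 2, 0 and 0 for the rises and 1, 2, 0 and 0 for the fall.

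**Figure D4:**
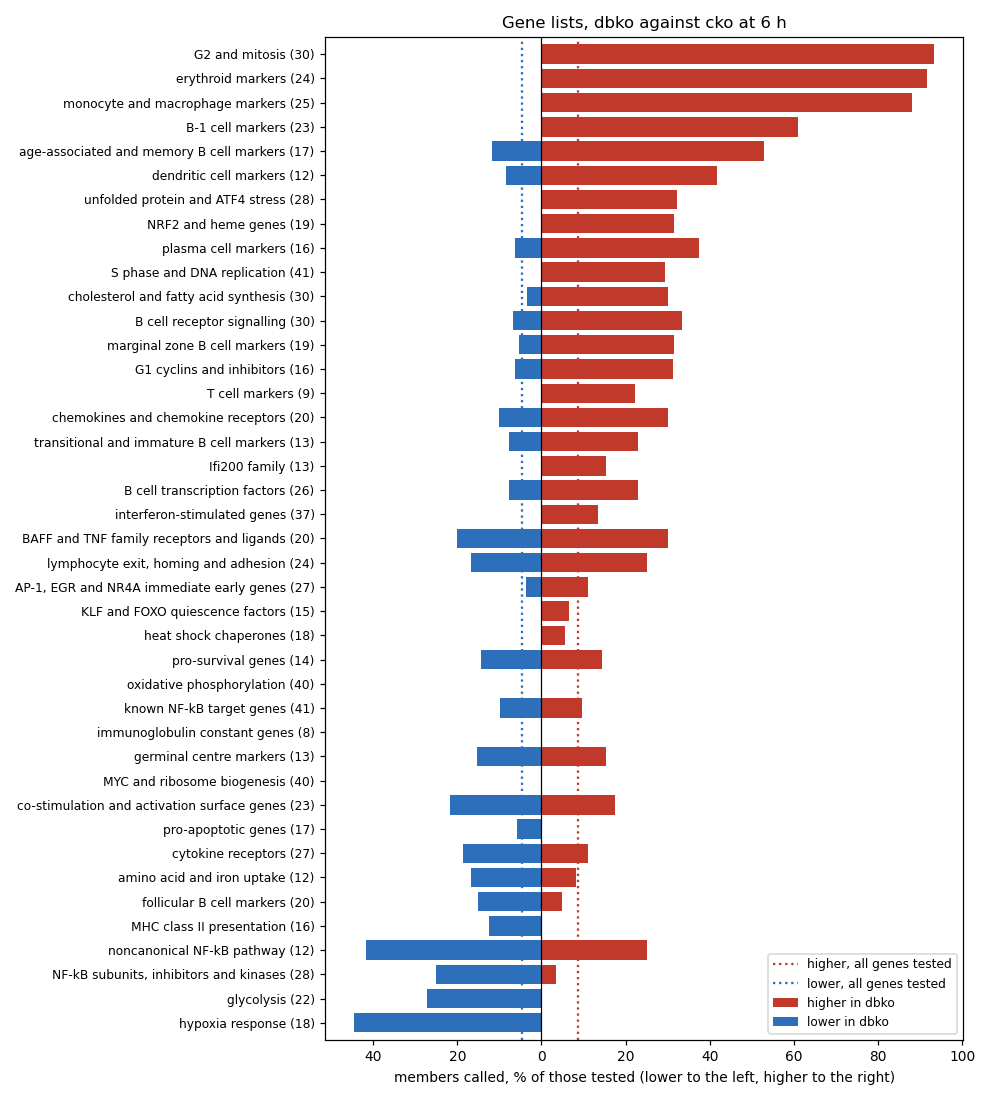
Members called higher (red, to the right) and lower (blue, to the left) in dbko against cko at 6h, as a percentage of the members tested, for lists with at least 8 tested members (number in brackets); dotted lines are the shares over all genes tested, 8.77% higher and 4.66% lower. G2 and mitosis, erythroid and macrophage lists reach farthest to the right and the hypoxia list farthest to the left.

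To see which differences were already there before 6h of BAFF, dbko was also set against cko at 0h, in 4 libraries not used at 6h. Replicate numbers are shared between times, and the deviations of the dbko libraries from their group means correlated at 0.483 between 6h and 0h, the highest of the 21 pairs of groups. At 0h 838 genes were higher and 302 lower, 9.03% of the genes tested. Of the 1108 genes higher at 6h, 966 were also above cko at 0h, as were 51.5% of all genes tested, and 394 were called there, 35.6% of the 6h list and 47% of the 0h list. Of the 589 genes lower at 6h, 489 were also below cko at 0h and 111 were called there, 18.8% of the 6h list and 36.8% of the 0h list. Opposite calls were made for 7 genes higher and 6 genes lower at 6h. Across the 12630 genes the log2 fold changes at 6h and 0h had a Pearson correlation of 0.73, as a description across genes. The 0h counts of higher and lower genes were 242 and 120 without dbko replicate 1, 1805 and 1210 without dbko replicate 2, 169 and 85 without cko replicate 1, and 153 and 74 without cko replicate 2. Relb had 53 and 65.6 CPM in dbko at 0h, against 195 and 168 CPM in cko (-1.61, adjusted p = 5.82e-05). Il9r, at 0.657 and 4.31 CPM in dbko at 0h, against 175 and 163 CPM in cko, differed by nearly the same log2 fold change as at 6h (-6.09, adjusted p = 3.26e-04), and Apoe had 9.86 and 7.76 CPM in dbko, against 103 and 94.4 CPM in cko (-3.49, adjusted p = 2.58e-06). Erythroid markers summed to 3137 and 1716 CPM in dbko, against 438 and 450 CPM in cko, at 0h.

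A difference between the 6h and 0h contrasts was found for 118 genes, 0.934% of those tested, 74 of them more positive and 44 more negative at 6h. The number was 682 without dbko replicate 2, 19 without cko replicate 1 and 60 without cko replicate 2 at 6h, and 64 without dbko replicate 1, 619 without dbko replicate 2, 17 without cko replicate 1 and 12 without cko replicate 2 at 0h, and without dbko replicate 1 or dbko replicate 2 at both times it was 288 and 2080. Without dbko replicate 1 at 6h alone the number was above 118, but by under 1.5 times. In a model of only the groups compared 1 gene was called. Cd86 had 86.1 and 108 CPM in dbko at 0h, against 78.3 and 70.1 CPM in cko, and was not called there (difference of the log2 fold changes -1.99, adjusted p = 0.0204). Zbtb46, a repressor known from dendritic cells, had 9.02 and 5.75 CPM in dbko at 0h, against 8.36 and 6.76 CPM in cko (-2.13, adjusted p = 0.0177). Dennd4a, an activator of a Rab GTPase, had 304 and 393 CPM in dbko at 6h, against 1070 and 836 CPM in cko, and 396 and 389 CPM in dbko at 0h, against 438 and 451 CPM in cko (-1.27, adjusted p = 0.0126). In the other direction, Tent5c had 294 and 262 CPM in dbko at 0h, against 281 and 287 CPM in cko (1.91, adjusted p = 5.69e-04), and S1pr3 27.1 and 41.8 CPM in dbko, against 41.5 and 38.6 CPM in cko (2.02, adjusted p = 0.00334). Tnfrsf13b had 161 and 189 CPM in dbko at 0h, against 172 and 174 CPM in cko (0.98, adjusted p = 0.0308). In these 6 genes dbko and cko libraries lay near each other at 0h and apart at 6h. The chaperone genes Hsph1 and Hspa8 were lower in dbko at 0h and not at 6h, where Hspa8 was called higher and Hsph1 was not called. Hsph1 had 96 and 137 CPM in dbko at 6h, against 97.1 and 98.3 CPM in cko, and 964 and 1108 CPM in dbko at 0h, against 3257 and 3232 CPM in cko (1.9, adjusted p = 0.00362). Hspa8 had 226 and 260 CPM in dbko at 6h, against 158 and 182 CPM in cko, and 704 and 644 CPM in dbko at 0h, against 1146 and 1096 CPM in cko (1.25, adjusted p = 0.00495).

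**Figure D5:**
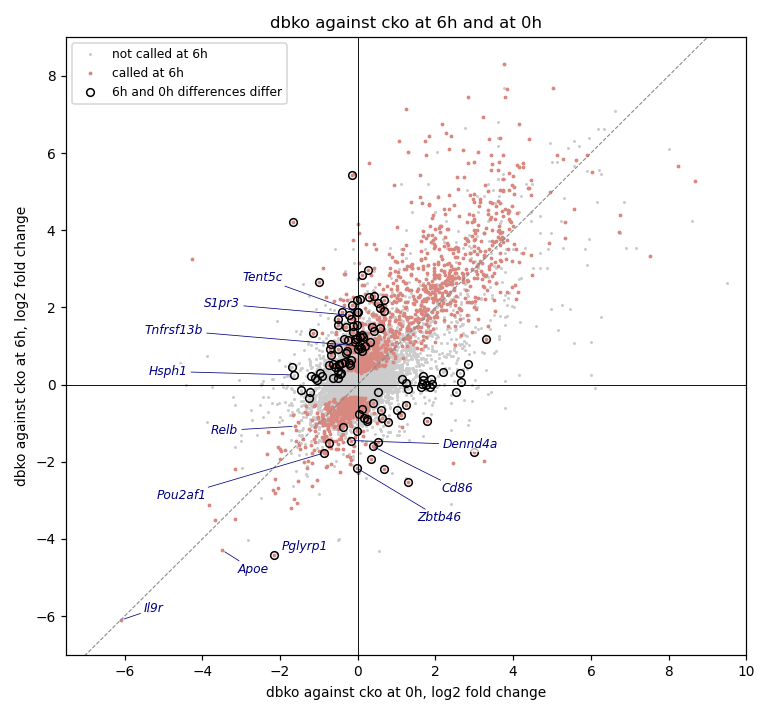
Log2 fold change of dbko over cko at 6h (vertical) against that at 0h (horizontal), 1 point per gene; 2 genes lie outside the axes. Pink points are called at 6h, black rings are the 118 genes whose 6h and 0h differences differ, and the dashed line marks equal values. Il9r lies on the line at -6.1 and -6.09, while Cd86, Zbtb46 and Dennd4a lie under the horizontal line near 0 at 0h, and Tent5c and S1pr3 above it.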

How the data were processed

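RNA was sequenced from poly-dT primed Illumina libraries, per the labels' protocols. The deposited values are raw counts of reads per gene, per the file headers and contents whole numbers with 1 table per library. The submitters' processing notes name CASAVA 1.8.2. The sources used here name no aligner, counting tool, build, annotation or strand setting. Tallies outside genes were dropped. In the 14 libraries they held 38.77 to 49.85% multiply aligned and 5.21 to 11.46% featureless reads, so genes with near copies are uncertain. Of 39179 gene IDs 37693, with 99.56% of counts, matched GENCODE M21 on GRCm38, used for names and positions.

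Counts of all 14 libraries were fitted in edgeR 4.0.16 (R 4.3.3, limma 3.58.1) with TMM, filterByExpr and robust glmQLFit, with 1 mean per group. Tests were two-sided glmQLFTest, with 7 residual degrees of freedom and 0.144 as the common coefficient of biological variation. SE is the absolute log2 fold change over the root of F. CPM used TMM-scaled totals. Python 3.11.15, NumPy 2.4.6, pandas 2.3.3 and Matplotlib 3.10.9 made tables and figures, and the fit was tested on simulated data. DESeq2 1.42.0 was an alternative, as was a term for the replicate number, which per the labels is the sequencing lane. Of 21 pairs of same-numbered libraries, 5 had deviations from their group means correlated above 0.1.

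The 2 groups compared, and 47 gene lists, were chosen with earlier results of these data known. Genes named were Rel and Relb, the 15 largest called rises and 15 largest falls where average log2 CPM was 3 or more, with a gene symbol that is no predicted, RIKEN or immunoglobulin segment name, up to 5 called members of each list by adjusted p, and the 6 most abundant genes whose 6h and 0h differences differ. Mki67, Mpg, Mef2c, Cd5, Cd9, the B cell identity genes and the uncalled members of lists with calls were named outside that rule, after their values were seen. The 1 tested sex-specific gene was not called. Some genes are not reported here.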

Additional observations from a re-analysis of the deposited data

Results flagged for a closer look

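For 25 named genes the log2 fold change of dbko over cko differed between 6h and 0h, by the contrast of both differences in edgeR's quasi-likelihood model of all 14 libraries (n = 2 libraries per group, Benjamini-Hochberg over 12630 genes). Each value is the 6h minus the 0h log2 fold change, with its adjusted p in brackets. It was positive for Tnfrsf13b 0.98 (0.0308), Cxcl16 2.21 (0.0459), Ccr1 2.06 (0.0239), S1pr3 2.02 (0.00334), Myof 2.49 (0.0315), Tbc1d9 1.53 (0.024), Dusp10 1.11 (0.0159), Sox4 1.18 (0.0335), Tent5c 1.91 (5.69e-04), Ly6c2 2.16 (0.0111), Spic 2.71 (0.0335), Hspa8 1.25 (0.00495), Egr2 1.14 (0.0125), Jun 1.44 (0.025), Tob1 1.02 (0.0482) and Hsph1 1.9 (0.00362). It was negative for Pglyrp1 -2.27 (0.0186), Zbtb46 -2.13 (0.0177), Cd86 -1.99 (0.0204), Ifngr1 -0.72 (0.0381), Pou2af1 -0.91 (0.0246), Hk1 -1.29 (0.0335), Mxi1 -2.03 (0.0274), Dennd4a -1.27 (0.0126) and B3gnt5 -1.02 (0.0156). Tent5c, the poly(A) polymerase gene, had the smallest adjusted p of these genes. The groups hold 2 libraries each, too few for a search for single libraries far from their group.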

How the results depend on the processing

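The 6h counts of 1108 higher and 589 lower genes were 142 and 48 with only the groups compared in the model, and 912 genes were lower with no filter on low counts. Leaving out 1 library gave 321 to 1819 higher and 238 to 1200 lower genes at 6h, 153 to 1805 higher and 74 to 1210 lower genes at 0h, and 12 to 682 genes whose 6h and 0h differences differed. At 0h 1375 genes were higher and 749 lower with no filter, 468 were lower with DESeq2, and 430 were higher and 115 lower with only the groups compared. The 118 genes whose differences differed became 576 with no filter, 252 with DESeq2, 1 with only the groups compared (796 at an unadjusted p under 0.05), 288 without dbko replicate 1 at both times and 2080 without dbko replicate 2 at both times. The cause was not tested. Size factors of DESeq2 in edgeR gave 1099 higher and 603 lower genes at 6h. Of the 168 named genes, 167 were called at 6h, and Hsph1, which was not, reversed to a log2 fold change of -0.03 without dbko replicate 2 and was 0.49 without dbko replicate 1. With DESeq2 4 of the named genes lost their call, with only the groups compared 113, without cko replicate 1 83, without cko replicate 2 48 and without dbko replicate 1 44. Same-numbered libraries share a sequencing lane. With the replicate block 1216 genes were higher and 641 lower at 6h, 989 and 380 at 0h, and 126 genes differed between times, with 1 named gene losing its 6h call, so the block moved none of these counts by over 1.5 times. The 2 libraries per group and the distance between the dbko libraries limit the precision of every value.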
